A study of Mus musculus with 4 samples.

Results

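The regions described here are the H3K27me2 peaks of the maternal genome that lie in 1 Mb windows of chromosomes 1 to 19 where no paternal peak was listed. Windows were cut by the start of each peak, and a window was kept when both paternal lists, that of Ezh2m+/p+ and that of Ezh2m-/p+ zygotes, had 0 peaks in it. Of 2473 autosomal windows, 839 (33.9%) met this rule. They held 2044 of the 5702 autosomal maternal peaks of Ezh2m+/p+ zygotes (35.8%) and 3530 of the 9487 of Ezh2m-/p+ zygotes (37.2%), 5574 of the 56036 peaks in all 4 lists. These numbers depend on the limits of the lists, and with a fold over 10 in all 4 lists the rule gave 876 and 2719 members, with a length over 2000 bp 1981 and 2353. The absence of paternal peaks was what chose these windows and is no finding, and any statement on paternal peaks inside them follows from that choice.

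Native chromatin immunoprecipitation of very few cells (ULI-NChIP) was carried out with an H3K27me2 antibody on zygotes at pronuclear stage PN5, with polar bodies removed. The eggs came from superovulated C57BL/6J females and were fertilized in vitro with sperm of PWK/PhJ males, so that reads over strain variants could be given to a parental genome. Mothers of the Ezh2m+/p+ zygotes were Ezh2 fl/fl. Those of the Ezh2m-/p+ zygotes were Ezh2 fl/fl; Gdf9-Cre, in which Cre is made in growing oocytes and deletes the floxed exon there, while the sperm brought an intact Ezh2 allele in both groups. Both groups thus carry the floxed background, and each is a pool of zygotes sequenced as 1 H3K27me2 library with 1 input library. No comparison between the genotypes has a replicate check, no p-value was computed, and every direction between the genotypes holds for the lists as they are labelled. The names and peak numbers of the lists give the genotypes used here, whereas the annotation shares described for the genotypes fit the lists the other way round, so the genotype names may be exchanged throughout. Intervals below are 95% intervals that cover counting error only, as if peaks were independent, although peaks lie in clusters.

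H3K27me2 is placed on histone H3 by Polycomb repressive complex 2 (PRC2), whose catalytic subunit is EZH1 or EZH2, and it is the intermediate step on the way to H3K27me3. It is broadly spread over silent and intergenic chromatin in most cells. In the zygote the maternal genome brings histone marks laid down in the oocyte, whereas the paternal genome is repackaged from protamines with new histones, so the parental genomes can differ in where a mark is found.

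To show the DNA beneath the peaks that recurred at the same place in both genotypes, the central 300 bases of the shared part are given for the 4 overlapping pairs whose lower fold was largest. The bases are the + strand of GRCm38 (mm10) from RefSeq, 5′ to 3′, in lower case with each CG dinucleotide in capitals.
Rxra, chr2:27612851-27613150: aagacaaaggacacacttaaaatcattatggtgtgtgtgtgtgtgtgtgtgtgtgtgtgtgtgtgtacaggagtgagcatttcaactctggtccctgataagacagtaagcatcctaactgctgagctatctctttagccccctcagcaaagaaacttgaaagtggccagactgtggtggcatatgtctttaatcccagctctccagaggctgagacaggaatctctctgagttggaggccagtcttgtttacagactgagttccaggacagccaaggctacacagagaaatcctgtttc
Lhx9, chr1:138773151-138773450: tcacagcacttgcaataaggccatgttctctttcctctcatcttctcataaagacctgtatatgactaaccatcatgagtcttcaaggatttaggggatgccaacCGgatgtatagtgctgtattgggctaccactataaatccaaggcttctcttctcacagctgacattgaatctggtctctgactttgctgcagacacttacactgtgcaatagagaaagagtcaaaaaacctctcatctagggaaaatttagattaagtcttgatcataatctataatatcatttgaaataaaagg
Mettl4, chr17:94707851-94708150: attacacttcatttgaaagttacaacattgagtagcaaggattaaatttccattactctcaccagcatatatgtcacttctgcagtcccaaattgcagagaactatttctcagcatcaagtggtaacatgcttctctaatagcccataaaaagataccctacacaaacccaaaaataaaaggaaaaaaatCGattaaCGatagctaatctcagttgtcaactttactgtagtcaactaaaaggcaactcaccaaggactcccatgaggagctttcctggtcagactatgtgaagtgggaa
Vps13d, chr4:145105551-145105850: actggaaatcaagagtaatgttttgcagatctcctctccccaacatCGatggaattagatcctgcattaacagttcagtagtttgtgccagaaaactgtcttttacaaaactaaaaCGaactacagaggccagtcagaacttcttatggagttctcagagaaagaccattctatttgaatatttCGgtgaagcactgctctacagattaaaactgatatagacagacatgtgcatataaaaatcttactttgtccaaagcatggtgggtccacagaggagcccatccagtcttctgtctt
The fragment nearest Rxra, which codes for a retinoid nuclear receptor, held 0 CG, had a GC content of 46.7% and was 70.0% soft-masked as repeat. Fragments nearest Lhx9, a LIM-homeobox factor, and Mettl4, a DNA and RNA adenine methyltransferase, held 1 and 2 CG and were 7.33% and 9.0% masked. The fragment from the pair of peaks annotated to an exon of Vps13d, a lipid transfer protein, held 3 CG and no masked base. A median of 2 CG dinucleotides lay in the central 300 bases of the members in both genotypes, against 3 in the other autosomal maternal peaks. At least 1 CG was present in 88.4% and 88.2% of the members and in 88.6% and 88.7% of the other peaks (Ezh2m+/p+ first, Ezh2m-/p+ second).

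Which windows lacked paternal peaks was largely common to both genotypes. The Ezh2m+/p+ paternal list was empty in 962 windows and the Ezh2m-/p+ paternal list in 880, so the 839 windows without either were 87.2% of the first and 95.3% of the second set. Of the 839, 62 consisted of over 50% unknown bases and could hold few or no peaks, which left 777 of 2411 windows with known sequence (32.2%). Paternal reads covered between 1.10% and 4.03% of each autosome in Ezh2m+/p+ and between 1.61% and 5.47% in Ezh2m-/p+ zygotes. At such coverage, a window without a listed paternal peak is one in which no peak was detected, not one shown to lack the mark.

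The share of windows without paternal peaks differed among chromosomes. It was highest on chromosomes 10 (49.2% of windows with known sequence), 14 (48.4%), 2 (48.0%) and 15 (46.5%), and lowest on chromosomes 19 (15.3%), 11 (16.8%), 4 (18.8%) and 18 (19.3%). Chromosomes with less paternal coverage tended to have more such windows, with Spearman correlations of -0.52 (Ezh2m+/p+) and -0.51 (Ezh2m-/p+) over 19 chromosomes. However, chromosome 14 combined a high share with a paternal coverage of 3.03% and 4.49%, and chromosome 1 a share of 43.0% with 3.47% and 5.05%. The part of coverage in where the windows fell was not tested.

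**Figure D1:**
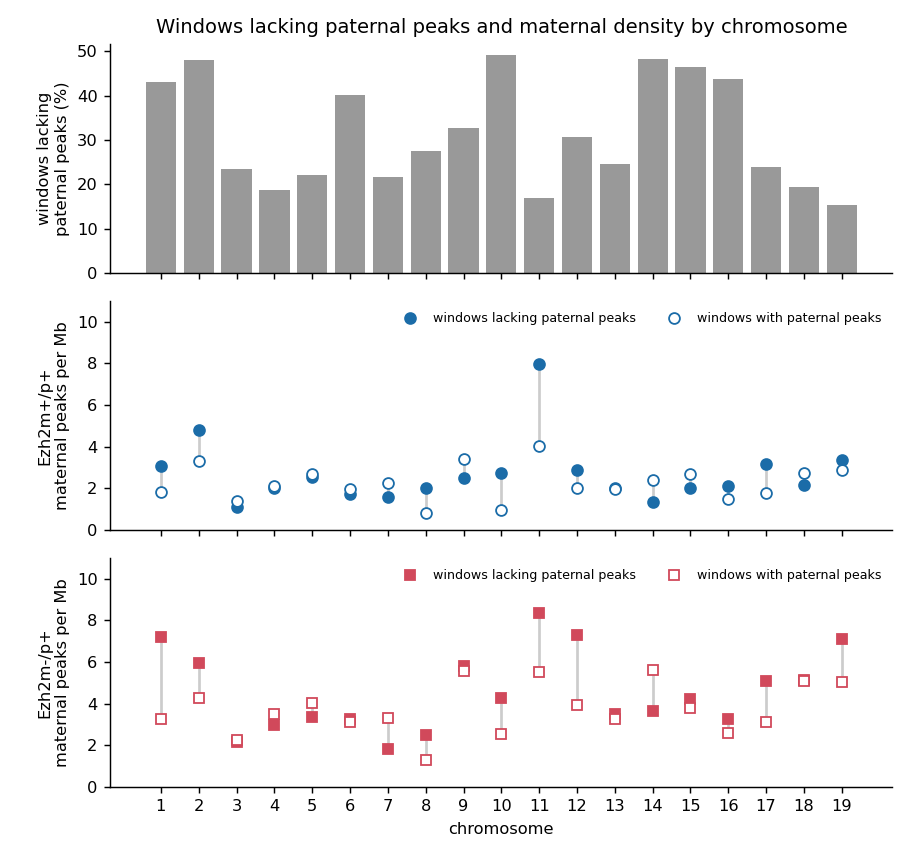
Percent of 1 Mb windows with known sequence that lacked paternal peaks (top, bars), and maternal peaks per Mb of known sequence in Ezh2m+/p+ (middle) and Ezh2m-/p+ zygotes (bottom), by chromosome. Filled symbols are windows lacking paternal peaks and open symbols windows with paternal peaks, and the filled symbol was the higher on 10 of 19 chromosomes in Ezh2m+/p+ and on 14 of 19 in Ezh2m-/p+ zygotes.

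The members were found at 2.66 per Mb of known sequence in Ezh2m+/p+ zygotes, where windows with a paternal peak held 2.25 maternal peaks per Mb, a ratio of 1.18 (1.12 to 1.25). In Ezh2m-/p+ zygotes the densities were 4.59 and 3.66 per Mb, a ratio of 1.25 (1.20 to 1.31). These ratios rested largely on chromosomes 1 and 2, which held 253 and 411 of the Ezh2m+/p+ members and 590 and 507 of the Ezh2m-/p+ members. Without chromosome 2 the ratio was 1.09 (1.03 to 1.16) in Ezh2m+/p+ zygotes, without chromosome 1 it was 1.16 (1.11 to 1.21) in Ezh2m-/p+ zygotes, and with both left out it was 1.04 (0.972 to 1.10) and 1.11 (1.05 to 1.16). The plot by chromosome shows the same unevenness. On chromosome 11 the members stood at 7.95 and 8.35 per Mb against 4.01 and 5.52 in the other windows, and on chromosome 10 at 2.73 and 4.26 against 0.959 and 2.55. On chromosome 14 the order was the reverse, with 1.35 and 3.66 per Mb in windows lacking paternal peaks against 2.40 and 5.61 in the others. The lists lay far apart on several chromosomes, with 3.08 (Ezh2m+/p+) and 7.17 (Ezh2m-/p+) members per Mb on chromosome 1 and 2.87 and 7.29 on chromosome 12, besides the values of chromosome 14.

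Maternal density did not fall steadily as paternal peaks became more numerous. Just outside the rule, the 90 windows with 1 paternal peak over both lists held 2.12 and 2.90 maternal peaks per Mb, against 2.66 and 4.59 in the 777 windows with 0. Windows with 21 to 40 paternal peaks reached 3.21 and 4.65 per Mb, similar to or above the windows with 0, and windows with over 40 had 1.59 and 2.68 per Mb.

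**Figure D2:**
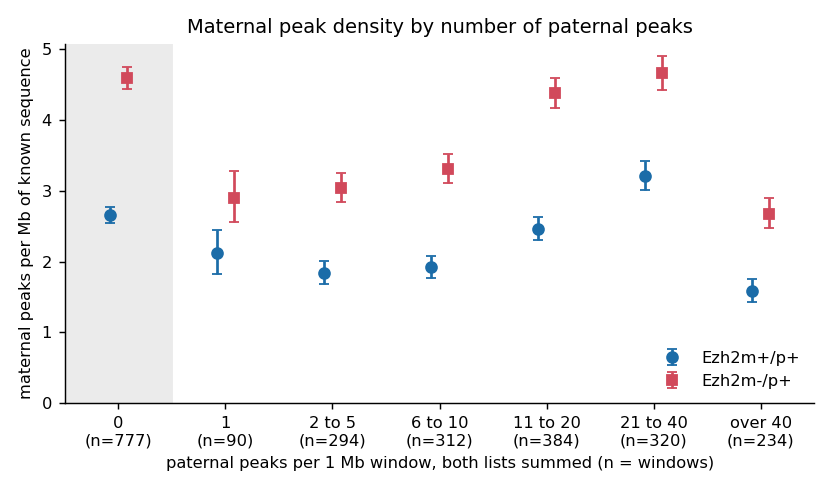
Maternal peaks per Mb of known sequence (y axis) in windows grouped by the number of paternal peaks summed over both genotypes (x axis, with the number of windows), for Ezh2m+/p+ (circles) and Ezh2m-/p+ (squares); bars are 95% exact Poisson intervals and cover counting error only. Densities of 2.66 and 4.59 per Mb at 0 paternal peaks (shaded) lie above those at 1 peak, and those at 21 to 40 peaks are 3.21 and 4.65.

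Windows without paternal peaks lay next to each other in 244 runs, of which 101 were 1 window long and 17 were 10 or more windows long. The runs count windows of unknown sequence, of which 3 open each of the 19 chromosomes, and these are part of the runs of 13 windows on chromosome 9 and 12 windows on chromosome 15. The 17 long runs contained 258 of the 839 windows (30.8%) and 786 (38.5%) and 1327 (37.6%) of the Ezh2m+/p+ and Ezh2m-/p+ members. For comparison, windows without a maternal peak in either genotype numbered 677 and formed 264 runs, 6 of them of 10 or more windows. The longest run was 24 windows for the paternal lists, as the rule defines it, and 17 windows for the maternal lists. With a fold over 10 or a length over 2000 bp in all 4 lists the longest paternal run was 38 or 40 windows.

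The longest run, from 45 to 69 Mb of chromosome 2, held 66 Ezh2m+/p+ and 106 Ezh2m-/p+ members in 15 and 20 of its windows. Its largest folds were 79.1, in an intron of Rbms1, an RNA-binding protein gene that is imprinted through maternal H3K27me3, and 72.7, in an exon of another transcript nearest Cers6, a ceramide synthase gene. The next run, of 23 windows from 7 to 30 Mb of the same chromosome, held 167 and 191 members. Every one of its 23 windows held a member in both genotypes, and the largest folds were at the promoter of Celf2, an RNA-binding splicing regulator (84.4), and in an exon of Itga8, an integrin subunit (102.5). No other unbroken series of windows without paternal peaks and with maternal peaks in both genotypes was longer than 10 windows, as seen at 31 to 41 Mb of chromosome 2 and 55 to 65 Mb of chromosome 9. Among windows with paternal peaks, the longest series occupied in both maternal lists had 17 windows.

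Another 3 runs complete the 5 longest. On chromosome 1 from 134 to 155 Mb, 21 windows held 70 and 199 members, led by peaks nearest Mir181b-1, a microRNA gene (fold 72.4), and in an exon of Rgl1, a Ral exchange factor (96.4). On chromosome 10 from 28 to 46 Mb, 18 windows held 61 and 87 members, led by the promoters of Ccdc162 (99.2) and Scml4, a Polycomb-family gene (69.6). On chromosome 12 from 82 to 100 Mb, 18 windows held 48 and 117 members, led by 1700064M15Rik (76.4) and Foxn3, a forkhead repressor (75.7). The Ezh2m-/p+ count was the higher in all 5 of these runs, as it was over all windows.

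Long runs were not all rich in maternal peaks. In the 15 windows from 80 to 95 Mb of chromosome 14, which contain 6 protein-coding genes, 0 Ezh2m+/p+ and 1 Ezh2m-/p+ members were listed, the latter nearest 4930529K09Rik (fold 19.1). In the 16 windows from 56 to 72 Mb of chromosome 6, with 95 protein-coding genes, 11 and 16 members were listed. Over the 17 long runs the members numbered from 0 to 167 in Ezh2m+/p+ (median 45) and from 1 to 199 in Ezh2m-/p+ zygotes (median 77).

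**Figure D3:**
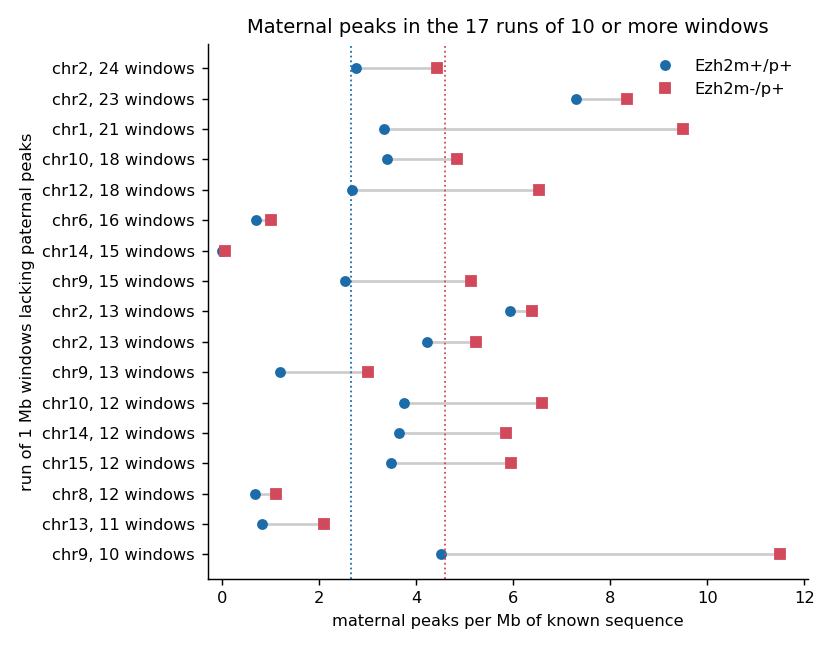
Maternal peaks per Mb of known sequence (x axis) in each of the 17 runs of 10 or more consecutive windows lacking paternal peaks (y axis, longest at the top), for Ezh2m+/p+ (circles) and Ezh2m-/p+ (squares). Dotted lines mark the densities over all windows lacking paternal peaks, 2.66 and 4.59 per Mb; the 23-window run on chromosome 2 stands at 7.30 and 8.35 per Mb and the 15-window run on chromosome 14 at 0 and 0.0667.

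The runs of chromosome 2 lay close together. A total of 2 windows with a paternal peak separated the runs that cover 7 to 30, 31 to 44 and 45 to 69 Mb, a stretch picked out after its values were seen. In these 62 windows the paternal lists had 1 (Ezh2m+/p+) and 3 (Ezh2m-/p+) peaks, of 1064 and 1436 on the whole chromosome. The maternal lists had 316 and 394 peaks in the same stretch, which is 43.9% and 43.6% of the maternal peaks of chromosome 2 in 62 of its 183 windows, and maternal peaks were present in 52 and 58 of the 62 windows. Of the members, 310 (15.2%) and 380 (10.8%) came from this stretch.

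At the ends of the long runs, paternal peaks dropped from a mean of 6.44 (Ezh2m+/p+) and 8.09 (Ezh2m-/p+) per window in the first window outside to 0 inside, as the rule requires. Maternal peaks showed no such step. Their means were 3.44 and 5.84 in the first window outside and 3.81 and 5.59 in the first window inside, over 32 edges with known sequence. Farther out, 5 to 8 windows from the edge, the maternal means were 2.27 to 2.80 and 3.27 to 3.93 per window. A window between neighbouring long runs, as on chromosomes 2 and 9, was counted at both edges. Windows farther out can lie inside another run, so the outside means also include windows lacking paternal peaks. Some borders were abrupt in the paternal lists. The 5 windows after the chromosome 1 run held 576 and 475 paternal peaks, and the 5 windows before the run from 132 to 145 Mb of chromosome 2 held 290 and 295.

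**Figure D4:**
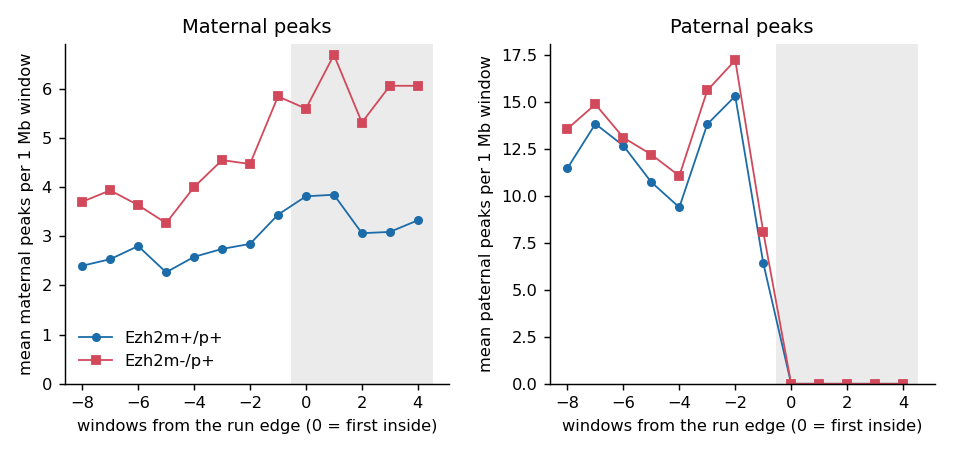
Mean number of maternal (left) and paternal (right) peaks per 1 Mb window (y axes) by distance from the edge of the 17 runs of 10 or more windows lacking paternal peaks (x axis, in windows; 0 is the first window inside, shaded), averaged over both ends of the runs with known sequence, without error bars because the windows are not replicates. Paternal means go to 0 inside by the rule, while maternal means in the first windows outside and inside are 3.44 and 3.81 in Ezh2m+/p+ and 5.84 and 5.59 in Ezh2m-/p+ zygotes. Windows between neighbouring long runs count at both edges, and outside windows can lie in another run.

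Windows without paternal peaks differed in sequence according to whether maternal peaks were present. The 440 windows occupied in both genotypes had a median of 6 protein-coding genes, a GC content of 42.7% and 29.99% repeat-masked bases. In the 216 windows of known sequence without any maternal peak the medians were 1 gene, 37.8% GC and 43.1% masked bases, and 35.2% of them contained no protein-coding gene. The 121 windows occupied in 1 genotype lay between, with 2 genes, 39.0% GC and 37.6% masked bases. Windows with a paternal peak had medians of 6 genes, 42.2% GC and 31.0% masked bases, close to those of the windows occupied in both genotypes. Over all 777 windows lacking paternal peaks the medians were 5 genes, 40.6% GC and 33.9% masked bases. Windows with a paternal peak were not divided by maternal peaks, so the contrast is not shown to be particular to windows lacking paternal peaks.

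The median length was 2999 bp in Ezh2m+/p+ and 2199 bp in Ezh2m-/p+ zygotes, both among members and among the other autosomal maternal peaks. Peaks over 5000 bp made up 8.81% (Ezh2m+/p+) and 5.30% (Ezh2m-/p+) of the members, against 7.52% and 3.64% of the other peaks. Median folds were 7.54 and 23.7 among members against 7.37 and 23.7, while the lower quartiles were 5.70 and 8.80 against 5.70 and 13.2. The folds fell into steps, with 144 and 196 distinct values, and few lay between 10 and 20 (4.01% and 7.76% of the members). Folds of 5 to 10 made up 59.2% (Ezh2m+/p+) and 26.4% (Ezh2m-/p+) of the members, so that a given fold need not mean the same in both lists. The ranking of overlapping pairs by their lower fold sets the lists side by side and shares this limit. Within a list, too, what placed a peak at a low or a high fold was not tested. Rankings by fold, here and below, therefore need not order peaks by their amount of H3K27me2.

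Among the Ezh2m+/p+ members, the peaks of largest fold were at the promoter of Ccdc162 (chr10:41557801-41563199, fold 99.2), in an intron of Mcu, the mitochondrial calcium uniporter (chr10:59564401-59569999, fold 97.8), and at the promoter of Celf2 (chr2:7077601-7083799, fold 84.4). In Ezh2m-/p+ zygotes they were upstream of Rhobtb2 (chr14:69814801-69820399, fold 121.6), at the promoter of Zfyve21 (chr12:111816801-111824799, fold 116.3) and in an intron of Olfml2b (chr1:170655401-170661399, fold 107.8). The longest members measured 20799 bp, downstream of Csf2, a cytokine gene (chr11:54225201-54245999, fold 7.29), and 17599 bp, at the promoter of Pebp4 (chr14:69829601-69847199, fold 35.4). None of these 8 peaks overlapped a member of the other genotype, and over all autosomal maternal peaks 9.49% (Ezh2m+/p+) and 5.82% (Ezh2m-/p+) overlapped a maternal peak of the other.

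By the annotation of the authors, 34.5% (Ezh2m+/p+) and 36.3% (Ezh2m-/p+) of the members were distal intergenic, 31.4% and 32.5% intronic and 12.8% and 10.5% exonic. Promoters, within 3 kb of a start site, accounted for 15.2% of the members in each genotype. Relative to the other autosomal maternal peaks the promoter share was lower by 1.02 points in Ezh2m+/p+ zygotes (members minus other, -1.02, -2.96 to 0.971) and by 2.27 points in Ezh2m-/p+ zygotes (-2.27, -3.79 to -0.731). The second interval left out 0 and the first included it. With a fold over 10 required in all lists the Ezh2m+/p+ difference was -4.40 points (-7.20 to -1.48).

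Counting by nearest gene, the members were assigned to 1252 (Ezh2m+/p+) and 1769 genes (Ezh2m-/p+). Both lists shared 765 of them, 61.1% of the former and 43.2% of the latter. A single member over both lists was found for 1097 of the 2256 genes, and 55 genes had 10 or more. The 10 genes with the most members had 235 of them (4.22%), 89 from Ezh2m+/p+ and 146 from Ezh2m-/p+ zygotes, spread over 422 to 1253 kb per gene.

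Intergenic members made up most of the peaks of 3 of these genes. Mir3090, a microRNA gene (15 and 16 members), and Hao1, a peroxisomal hydroxyacid oxidase (15 and 13), are neighbours on chromosome 2, and all 31 members of Mir3090 and 25 of the 28 of Hao1 were distal intergenic. Slc4a3, an anion exchanger, had 9 and 9 members, 17 of 18 distal intergenic. Members of the other 7 genes lay mainly in introns. As genes are named by nearest start site, these introns can belong to a gene other than the one named. Cdkal1, a tRNA-modifying enzyme, had 12 and 18 members, 26 of 30 in introns. Counts for Glis3, a Krüppel-like factor, were 5 and 19, for Magi2, a synaptic scaffold, 9 and 15, and for Etl4 8 and 13. Dock4, a guanine nucleotide exchange factor, had 7 and 13, Lrrn3 2 and 18, and Ptprg, a receptor phosphatase, 7 and 12. Lrrn3 was thus the most uneven of the 10 between the genotypes, and its 2 Ezh2m+/p+ members had folds of 5.03 and 6.53 only.

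As a background for gene groups, 5563 of 20665 autosomal protein-coding genes (26.9%) started in windows lacking paternal peaks. A member was assigned to 18.8% of these 5563 in Ezh2m+/p+ zygotes, to 25.8% in Ezh2m-/p+ zygotes and to 11.4% in both. The gene lists were not adjusted for gene length, and no list was tested.

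Among canonical imprinted genes, which are silenced on 1 parental allele through germline DNA methylation, 9 of 47 autosomal genes started in these windows, 1 with an Ezh2m+/p+ member and 3 with an Ezh2m-/p+ member. Of these 3, 2 belong to the Dlk1-Dio3 domain on chromosome 12. Dio3, a deiodinase, had 1 peak in each list, at chr12:110310001-110312399 (fold 40.2, Ezh2m+/p+) and chr12:110319001-110321799 (fold 42.8, Ezh2m-/p+), which did not overlap. Most autosomal maternal peaks did not overlap one of the other genotype (9.49% of Ezh2m+/p+ and 5.82% of Ezh2m-/p+ peaks did). Dlk1, a Notch-like ligand, had 2 Ezh2m-/p+ peaks, 1 at its promoter (fold 31.4) and 1 intergenic peak upstream (fold 24.5). The last, in Herc3, a ubiquitin ligase, was an Ezh2m-/p+ peak of 999 bp with a fold of 18.4.

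Genes imprinted through maternal H3K27me3, the mark made by further methylation of H3K27me2, formed a second list. Of 8 such genes in these windows, 5 had an Ezh2m+/p+ member (62.5%), 4 an Ezh2m-/p+ member and 3 both. Rbms1 had 5 Ezh2m+/p+ members with folds from 5.03 to 79.1 and 7 Ezh2m-/p+ members with folds from 22.2 to 46.7, none overlapping between the lists. Over all autosomal maternal peaks, only 9.49% (Ezh2m+/p+) and 5.82% (Ezh2m-/p+) overlapped a maternal peak of the other genotype. Sfmbt2, a Polycomb-family gene, had 2 Ezh2m+/p+ members (folds 5.70 and 6.37) and 4 Ezh2m-/p+ members (folds 5.55 to 26), and Platr20 had 2 (6.20 and 6.70) and 1 (9.94). Tle3, a Groucho corepressor, had 9 Ezh2m-/p+ members with folds from 5.16 to 45.9 and no Ezh2m+/p+ member. Slc38a1, an amino acid transporter, and Bbx had 1 Ezh2m+/p+ member each (folds 77.7 and 28.1) and none in Ezh2m-/p+ zygotes.

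Regulators of H3K27 methylation formed a further list. Of 7 Polycomb-list genes in these windows, 1 had an Ezh2m+/p+ and 3 an Ezh2m-/p+ member. Rnf2, the PRC1 ubiquitin ligase, had 3 Ezh2m-/p+ members (folds 7.22 to 42.1, the longest 9599 bp). Ehmt1, an H3K9 methyltransferase, had 2 (19.9 and 28.3), and Asxl2 had 1 in each list (5.03 in Ezh2m+/p+ and 28.3 in Ezh2m-/p+). Of 14 oocyte and maternal-effect genes, 1 and 3 had members. Dnmt3a, the de novo DNA methyltransferase of the oocyte, had 1 Ezh2m+/p+ member (fold 42.9) and 2 Ezh2m-/p+ members, in its 3′ UTR (58.9) and at a promoter (6.21). The promoter of Dnmt1, the maintenance methyltransferase, had an Ezh2m-/p+ member (42.8), as did an intron nearest Nobox, an oocyte homeobox factor (21.4).

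Of 15 Sox, forkhead, T-box and Gata genes in the windows, 10 had an Ezh2m+/p+ member (66.7%), 7 an Ezh2m-/p+ member (46.7%) and 7 both. The largest folds were at Foxp1 (67.0), Gata3 (59.0), Foxn3 (54.95) and Foxo3 (50.9) in Ezh2m+/p+ and at Foxn3 (75.7) in Ezh2m-/p+ zygotes. Hox and other homeobox genes had members at 8 of 40 genes (20%, Ezh2m+/p+) and 17 of 40 (42.5%, Ezh2m-/p+), among them Irx4 (53.6) in Ezh2m+/p+ and Nkx2-6 (78.0) and Barhl1 (50.5) in Ezh2m-/p+ zygotes. Of 101 zinc finger genes, 16 (15.8%) and 20 (19.8%) had members, with Zbtb24 (61.7) and Zfp281 (44.4) the highest.

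For signalling and membrane proteins, 7 of 25 Wnt, Fgf and Bmp pathway genes (28.0%) had a member in each genotype and 4 in both, with Bmp2 (61.7 and 47.4), a growth factor, and Acvr2a (38.9 and 52.0), an activin receptor, listed in both. Genes of potassium, sodium, calcium and chloride channel families, voltage-gated or not, had members at 15 (36.6%) and 17 (41.5%) of 41, with Cacnb2 (72.4, Ezh2m+/p+) and Kcnk10, a background potassium channel (63.5, Ezh2m-/p+), the highest. Cadherin genes had members at 6 of 16 (37.5%) in each genotype, including Cdh13 (44.2 and 34.4). Of 26 collagen and integrin genes, 6 (23.1%) and 17 (65.4%) had members, with Col28a1 (48.3) and Itga8 (102.5) the highest. Ribosomal protein genes, which are active in every cell, had members at 5 (29.4%) and 4 (23.5%) of 17 genes, for example distal peaks nearest Rplp1 (57.6 and 29.1) and Rps24 (56.3 and 32.9).

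Olfactory and vomeronasal receptor genes, which are expressed in sensory neurons, were the largest list in these windows. Of 473 such genes there (1452 on the autosomes), 13 (2.75%) had an Ezh2m+/p+ member, 16 (3.38%) an Ezh2m-/p+ member and 7 (1.48%) both, beside the 18.8%, 25.8% and 11.4% of all protein-coding genes there. Zinc finger and oocyte genes also had shares below these 3 values. Examples were Olfr19 (45.6) and Olfr1378 (42.9) in Ezh2m+/p+ and Olfr346 (45.1) and Olfr281 (37.5) in Ezh2m-/p+ zygotes.

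The genotypes were compared by window, by gene and by position. Of 561 windows lacking paternal peaks with a maternal peak in either genotype, 440 had one in both (78.4%, 74.8 to 81.6%), 28 in Ezh2m+/p+ only and 93 in Ezh2m-/p+ only. The share was 76.5% (74.1 to 78.8%) in windows with paternal peaks. Numbers of members per window had a Spearman correlation of 0.82 over 777 windows, against 0.77 over the 1634 others, and neighbouring windows are not independent. The window with the most members was 138 to 139 Mb of chromosome 1, with 16 and 29 near Atp6v1g3 and Nek7. At 151 to 152 Mb of that chromosome the numbers were 7 and 36, and at 133 to 134 Mb of chromosome 2, around Mir3090, 19 and 16.

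**Figure D5:**
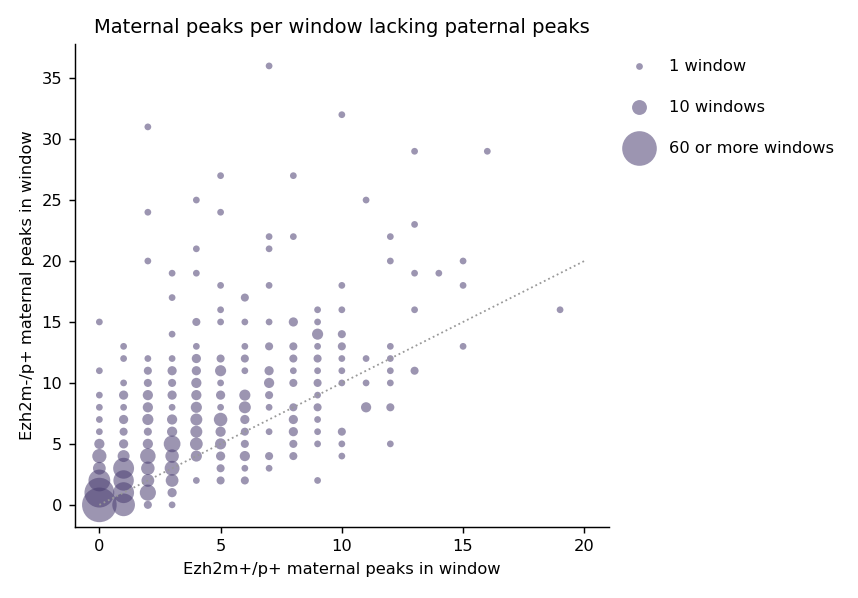
Number of maternal peaks in Ezh2m+/p+ (x axis) and Ezh2m-/p+ zygotes (y axis) in each of the 777 windows of known sequence lacking paternal peaks; the area of a point grows with the number of windows, up to 60, and the dotted line marks equal numbers. Counts rise together, from 216 windows with none in either list to 16 and 29 in the fullest window, and 401 windows lie above the line and 105 below it.

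By position, far fewer members agreed. Of the Ezh2m+/p+ members, 224 (10.96%, 9.68 to 12.4%) overlapped an Ezh2m-/p+ member by at least 1 bp, and of the Ezh2m-/p+ members 231 (6.54%, 5.77 to 7.41%) overlapped an Ezh2m+/p+ member. Over all autosomal maternal peaks these shares were 9.49% and 5.82%. Members exceeded the other maternal peaks by 2.29 points (0.694 to 3.97) and 1.16 points (0.178 to 2.18). The share also moves with how densely peaks lie, and the part of density in this difference was not tested. The shares themselves depended on the limits set. With a fold over 10 in all lists they were 6.74% and 2.17%, and with a reciprocal overlap of 50% they were 5.87% and 3.40%. At a fold over 10 the differences from the other peaks were 1.34 points (-0.627 to 3.48) and 0.399 points (-0.251 to 1.11), so that the intervals then included 0. The Ezh2m-/p+ interval also included 0 at a reciprocal overlap of 50% (0.663 points, -0.0440 to 1.42), without chromosome 2 (0.926, -0.0804 to 1.99) and without chromosomes 1 and 2 (0.929, -0.154 to 2.09).

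Between exact overlap and the 1 Mb window, 29.5% (Ezh2m+/p+) and 18.1% (Ezh2m-/p+) of the members lay within 10 kb of a member of the other genotype, and the median distances were 28.6 and 53.6 kb. Over all autosomal maternal peaks, 27.1% and 17.3% lay within 10 kb of a maternal peak of the other genotype, with median distances of 33.0 and 62.0 kb. Counted in that way, members exceeded the other maternal peaks by 3.67 points (1.25 to 6.12) in Ezh2m+/p+ and 1.31 points (-0.262 to 2.91) in Ezh2m-/p+ zygotes, the latter interval including 0. Of the 765 genes with members in both genotypes, 568 (74.2%, 71.0 to 77.2%) had no overlapping pair, beside 77.7% of the 2111 genes listed in both over all autosomal maternal peaks. Among the 10 genes with the most members, Cdkal1, Glis3 and Lrrn3 had none, while Mir3090, Hao1 and Magi2 had 4 overlapping Ezh2m+/p+ members each.

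The 231 overlapping pairs had a median shared length of 1799 bp, and 227 were nearest the same gene in both lists, which follows largely from their shared position. Distal intergenic positions accounted for 82 of them and promoters for 27, and in 46 pairs both folds were over 20. The pairs with the largest lower fold, whose central bases were printed, were those upstream of Rxra (53.6 in Ezh2m+/p+ and 56.6 in Ezh2m-/p+), nearest Lhx9 (44.2 and 47.4), nearest Mettl4 (42.9 and 45.1) and in Vps13d (42.9 and 42.8). They were followed by pairs annotated as 5′ UTR and nearest Cyb5d2 (60.3 and 39.0), in an intron of Fnbp1, a membrane-bending formin-binding protein (37.5 and 37.5), and nearest Slc1a3, a glutamate transporter (67.0 and 36.7). The pairs nearest Fam124b (36.2 and 55.8), 4930423M02Rik (36.2 and 35.2) and Upb1, a pyrimidine-catabolic enzyme (33.5 and 35.9), completed the 10, the last lying upstream of Upb1 in an intron of another gene. Among promoter members, 9.32% of 311 (6.57 to 13.1%) overlapped in Ezh2m+/p+ zygotes and 5.78% of 536 (4.10 to 8.09%) in Ezh2m-/p+ zygotes. Members over 5000 bp overlapped in 14.4% of 180 (10.1 to 20.3%) and 11.8% of 187 (7.90 to 17.2%). Over all members the shares were 10.96% and 6.54%. Shares for promoter peaks and long peaks outside these windows were not computed, so neither value is shown to be particular to the members. The part of peak length in the overlap was not tested.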

How the data were processed

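H3K27me2 was measured by ULI-NChIP in 1 library of Ezh2m+/p+ and 1 of Ezh2m-/p+ zygotes, each with 1 input. The authors used Trimmomatic 0.38 for trimming, Bowtie2 for alignment to mm10, Picard against duplicates and SNPsplit to assign reads by parental variants. SICER peaks were called against the input, per library and parental genome without pooling. By their methods, the authors retained those longer than 1000 bp whose fold exceeded 5, although the shortest peaks in the deposited lists have a listed length of 999 bp, and they took annotations from ChIPseeker. SNPsplit and ChIPseeker versions are not given in the sources used here. Requiring a variant means that regions with few variants yield fewer assigned reads. The deposited peak lists give each peak's position, length in bp, distance in bp to the nearest start site and its ratio (fold) of H3K27me2 to input. Covered fractions of the chromosomes come from a further deposited table, of which the paternal autosomal values were used here and 84 values of other rows were not. Reads per parental genome are unknown, so depth per peak cannot be given. For whole libraries, the authors report less sequencing depth for Ezh2m-/p+ than for Ezh2m+/p+ zygotes, in both H3K27me2 and input. Numbers of peaks, folds and overlaps were not adjusted for this depth here, and its part in differences between the genotypes was not tested.

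From these lists, peaks were placed in 1 Mb windows by start, and windows over 50% unknown bases in GRCm38.p6 were marked. Densities were taken per Mb of known sequence, with exact conditional intervals for ratios, Wilson intervals for shares and Newcombe intervals for differences of shares. Genes were the nearest genes of the authors' annotation, named through RefSeq for all 5574 members. Software was Python 3.11.15 (scipy 1.17.1, numpy 2.4.6, matplotlib 3.10.9, pandas 2.3.3). Windows, members, runs, overlaps and the intervals of ratios were tested on simulated data, the intervals with independent counts. The Wilson and Newcombe intervals were not tested in this way. The members and gene lists were chosen with earlier results of these data known. Genes named in the text are the 10 with the most members, the 10 overlapping pairs with the largest lower fold, the 3 largest folds and longest member of each list, the top peaks of the 5 longest runs, all members of the imprinted, Polycomb and oocyte lists and up to 4 of each other list, of which some genes are not reported here. Alternatives were windows shifted by 500 kb, windows whose neighbours also lacked paternal peaks, a reciprocal overlap of 50%, the other genotype's paternal list, windows of unknown sequence left out promoters within 1 kb, and limits of 10 on the fold or 2000 bp on the length. Leaving out chromosomes 1 and 2, and the alternatives for the difference in overlap, were added after the data were seen.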

Additional observations from a re-analysis of the deposited data

Results flagged for a closer look

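Of the annotation categories, 2 moved in opposite directions in the genotypes when members were set against the other autosomal maternal peaks. The share of peaks at promoters, counted within 1 kb only, was 0.578 points higher among the members of Ezh2m+/p+ zygotes (-0.979 to 2.21) and was lower in Ezh2m-/p+ zygotes, at -1.63 points (-2.81 to -0.417). The intron share differed by -0.220 points in Ezh2m+/p+ (-2.72 to 2.31) and by 1.20 points in Ezh2m-/p+ zygotes (-0.738 to 3.15). With 1 library per genotype the difference between the genotypes was not tested, and 3 of the 4 intervals included 0.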

How the results depend on the processing

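With 1 library per genotype no replicate could be left out. No paired analysis was possible because each genotype has 1 H3K27me2 library. Of 69 recomputed values, 50 stayed within the interval of the reported value or, for counts, within 1.5 times, 19 moved beyond it and 0 changed the direction of a difference whose interval left out 0 or 1. With a fold over 10 in all lists, the Ezh2m+/p+ members numbered 876, their promoter difference was -4.40 points, the overlapping shares were 6.74% (Ezh2m+/p+) and 2.17% (Ezh2m-/p+), the windows occupied in both genotypes made up 61.0% of those occupied, and the longest run was 38 windows. With a length over 2000 bp, the Ezh2m-/p+ members numbered 2353, the overlapping share of Ezh2m+/p+ members was 8.18%, windows occupied in both made up 72.2% and the longest run was 40 windows. Where both neighbouring windows also had to lack paternal peaks, 1139 and 1987 members remained. A reciprocal overlap of 50% gave shares of 5.87% and 3.40%. The density ratio of Ezh2m-/p+ zygotes was 1.19 with windows chosen from the Ezh2m+/p+ paternal list alone and 1.16 without chromosome 1. That of Ezh2m+/p+ zygotes was 1.09 without chromosome 2, and without chromosomes 1 and 2 the ratios were 1.04 and 1.11. The cause of these changes was not tested, other than that stricter limits remove peaks by construction. The position of reads over strain variants, the read depth of each parental genome and the spread between zygote collections were not measured here, and they limit every statement about windows without paternal peaks.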
